A study of Mus musculus with 14 samples.

Results

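The genes described here encode 44 subunits of the mitochondrial oxidative phosphorylation complexes and the mobile carrier cytochrome c, all of them transcribed in the nucleus. They were taken as a list of 45 mouse gene symbols and found by symbol among the 55416 genes of each deposited table. By complex they were 22 genes of complex I, 4 of complex II, 6 of complex III, cytochrome c, 7 of complex IV and 5 of complex V. Ndufa4 was counted with complex I throughout, by its name. All 45 passed the filter on low counts in each tissue. RNA was sequenced from gastrocnemius, a calf muscle, and from lung of male C57BL/6 (C57BL/6NCrlOri) mice aged 6 to 8 weeks, in a model made by intratracheal delivery of cells of a line named KrasIKKaL. The groups were 3 tumour-bearing (TB) and 3 control (CON) gastrocnemius libraries and 5 TB and 3 CON lung libraries. The sources used here do not say what the controls received. The study looked for targets in cachexia, the wasting of muscle in cancer, and in immune-related adverse events of muscle.

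Oxidative phosphorylation moves electrons from NADH through complex I, or from succinate through complex II, to complex III, cytochrome c and complex IV, where oxygen is reduced. Complexes I, III and IV pump protons across the inner mitochondrial membrane, and complex V, the ATP synthase, uses the gradient to make ATP. Complexes I, III, IV and V combine subunits encoded in the nucleus with subunits encoded in the mitochondrial genome, whereas complex II is wholly nuclear. Skeletal muscle and heart carry tissue-restricted forms of several complex IV subunits.

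Total expected counts per library ran from 32476212 to 44169437 in gastrocnemius and from 47947379 to 61087330 in lung. Separate animals are not named in the labels for the replicates of a group. The p-values here therefore cover the spread among these libraries alone, and that spread may be technical. Summed over the 45 genes, the share of counts left after removing mitochondrially encoded genes was 1.04%, 1.77% and 1.41% in TB gastrocnemius, against 2.42%, 2.22% and 2.04% in CON gastrocnemius. The same share was between 0.573% and 0.712% in the 5 TB lung libraries, against 0.366% to 0.395% in the 3 CON lung libraries. On this measure the groups did not overlap in either tissue, and the TB libraries lay below CON in gastrocnemius and above CON in lung. With mitochondrially encoded counts kept, the gastrocnemius shares overlapped, at 0.855%, 1.44% and 1.07% in TB and 2.03%, 1.63% and 1.34% in CON. The summed TPM of the 45 genes overlapped there too, at 12916, 23481 and 16219 in TB gastrocnemius and 32742, 24623 and 20478 in CON gastrocnemius. In bulk RNA, fewer cells of a type and less RNA per cell cannot be told apart, and TB lung can hold RNA of the injected cells as well as of the host.

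The first question was how the 45 genes differed between TB and CON lung. Genes of all 5 complexes were higher in TB lung: 37 of 45 rose, 1 fell and 7 did not pass the test (edgeR's quasi-likelihood test, Benjamini-Hochberg adjusted p under 0.05). Of all 19300 genes tested in lung, 59.7% passed in either direction, 30.4% higher and 29.3% lower, against 82.2% of the 45 genes higher and 2.22% lower. The median log2 change of the 45 genes was 0.95, against 0.07 over all genes tested. By complex, 18 of 22 genes of complex I rose, as did 3 of 4 of complex II, 5 of 6 of complex III, 6 of 7 of complex IV and 5 of 5 of complex V. The counts scaled to library size (CPM, normalised by TMM) of the TB libraries lay wholly above the CON libraries for 37 of the 45 genes and wholly below for 2, where the shares over all genes were 30.9% and 32.1%. The scale mattered: on log2(TPM + 1), with TPM the length-scaled transcript abundance, limma called 26 of the 45 higher and 3 lower, and 3594 of all genes higher and 7994 lower, against 5862 higher and 5651 lower in edgeR. The median over all genes was -0.23 on that scale, and the median of the 45 lay 0.72 above it, against 0.87 above it on the CPM scale. The calls lost there were Ndufs7, Ndufa1, Ndufa9, Ndufb10, Sdhb, Sdhc, Uqcrc2, Uqcrfs1, Cyc1, Cox6c and Atp5o. Of these Sdhc and Ndufb10 had values below 0, at -0.11 and -0.05, as did Ndufs1, Ndufb3 and Uqcrb among the genes not called.

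**Figure D1:**
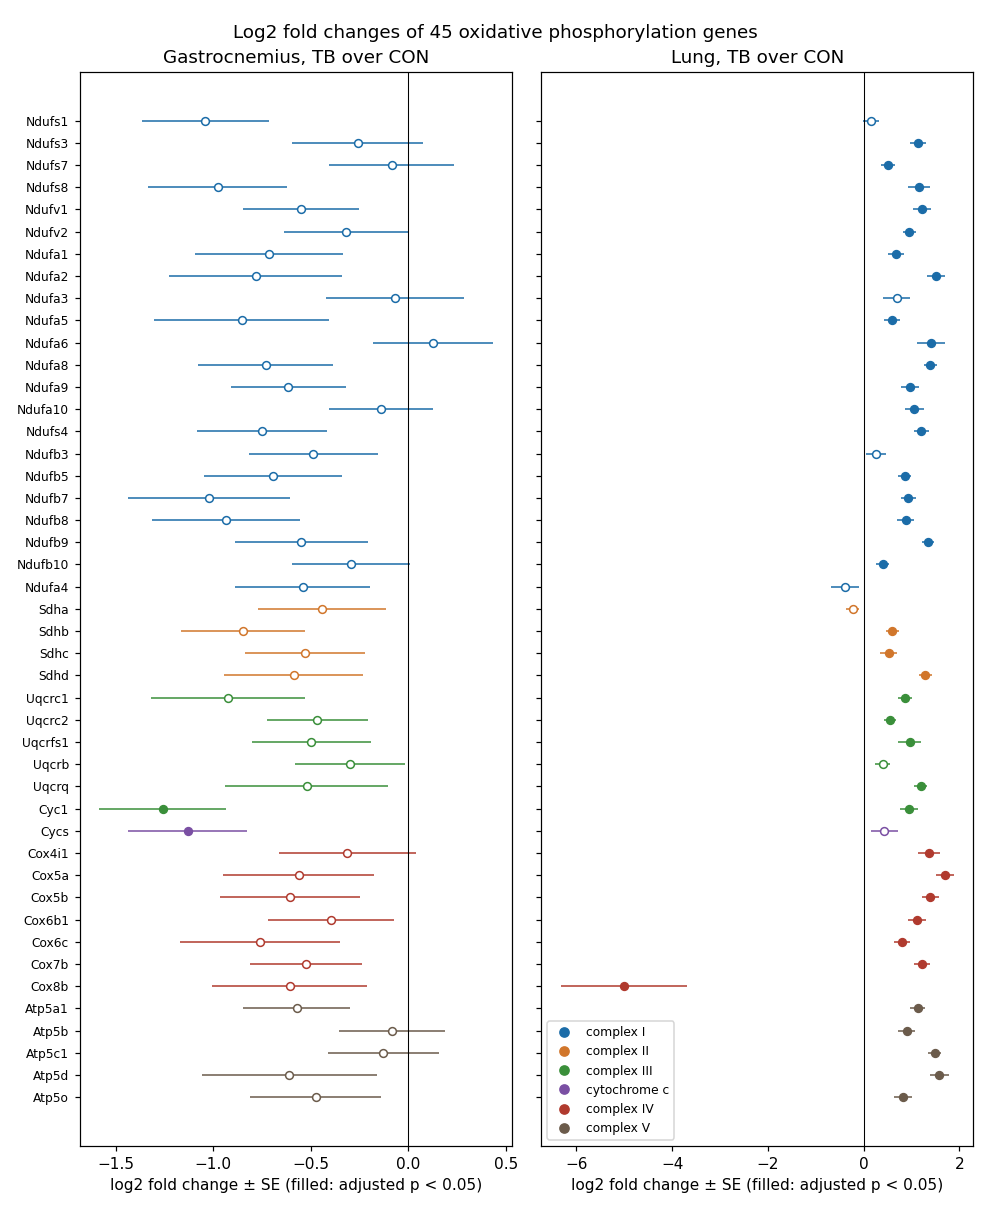
Log2 fold change of TB over CON with its SE for each of the 45 genes, in gastrocnemius (left) and lung (right), grouped by complex, with filled points for an adjusted p under 0.05. The horizontal scales of the panels differ. In gastrocnemius 44 of 45 points lie below 0 and 2 are filled, and in lung 42 of 45 lie above 0 and 38 are filled, with Cox8b far below the rest.

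Of complex V, which makes the ATP, all 5 nuclear genes listed rose in lung in edgeR, and Atp5o lost its call on log2(TPM + 1). Its mitochondrially encoded genes mt-Atp6 and mt-Atp8, counted apart, did not pass. Atp5c1, the gamma subunit that forms the rotating stalk, had 291, 284, 279, 291 and 295 CPM in the TB lungs, against 98.5, 106 and 105 CPM in the CON lungs. The TB values were tightly grouped and all above the CON values, a 2.79-fold difference (log2 change 1.48, SE 0.13, adjusted p = 2.23e-05, edgeR). Atp5d, the delta subunit of the same stalk, had 296, 276, 293, 304 and 463 CPM in the TB lungs, against 110.4, 109 and 107 CPM in the CON lungs (log2 change 1.58, SE 0.21, adjusted p = 0.000203, edgeR). All TB libraries were above CON, with TB 5 apart from the other 4. Atp5b, the catalytic beta subunit and the most abundant of the 45 transcripts in CON lung, averaged 778 ± 118 CPM in TB lung and 416 ± 10.6 CPM in CON lung (SD, n = 5 and 3). Its 5 TB values, from 614 to 907 CPM, did not overlap the CON values, from 405 to 425 CPM (log2 change 0.90, adjusted p = 0.00211, edgeR). Atp5a1, the alpha subunit that completes the catalytic ring, and Atp5o, which joins the ring to the membrane part, rose by 1.13 and 0.83 on the log2 scale.

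In complex I, the entry point for electrons from NADH, the largest changes were in accessory subunits. Ndufa2 had 114, 87.8, 64.5, 92.4 and 91.7 CPM in the TB lungs, against 30.0, 32.3 and 32.5 CPM in the CON lungs, and was 2.85-fold higher (log2 change 1.51, SE 0.19, adjusted p = 0.000163, edgeR). Ndufa8 averaged 82.9 ± 7.40 CPM in TB lung and 31.5 ± 3.16 CPM in CON lung, and Ndufb9 132 ± 10.3 CPM in TB lung and 51.9 ± 1.62 CPM in CON lung (SD, n = 5 and 3). Neither overlapped, and their log2 changes of 1.40 and 1.35 were among those with the smallest p of the complex. Ndufs4, an accessory subunit whose loss causes mitochondrial disease, rose by 1.20, Ndufb7 by 0.93 and Ndufb5 by 0.86 on the log2 scale. Of the core subunits, which carry the flavin and the iron-sulphur clusters, Ndufv1, which holds the flavin, rose by 1.22, Ndufs3 by 1.14 and Ndufv2 by 0.96. Ndufs1, the largest core subunit, stood at 51.6, 63.5, 51.1, 48.4 and 39.5 CPM in the TB lungs, against 41.9, 46.8 and 48.8 CPM in the CON lungs. These values overlapped (log2 change 0.15, SE 0.17, adjusted p = 0.462, edgeR). Ndufa3 and Ndufb3 also overlapped and did not pass, with log2 changes of 0.69 and 0.26. The median change was 1.05 over the 6 core genes, 1.06 over the 9 accessory genes of the A and S series and 0.87 over the 6 of the B series.

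Ndufa4 carries a complex I name but is now known as a subunit that associates with complex IV. Its values were 47.7, 113, 48.6, 70.9 and 49.5 CPM in the TB lungs, against 78.6, 90.0 and 91.9 CPM in the CON lungs. TB libraries 1, 3, 4 and 5 lay below every CON library and TB 2 above them, and the difference did not pass (log2 change -0.40, SE 0.29, adjusted p = 0.270, edgeR). Without TB 2 it passed, at -0.66 (adjusted p = 0.0113), and it also passed in limma on log2(TPM + 1), at -0.88 (adjusted p = 0.0233), and over 19 alternatives the adjusted p ran from 0.0113 to 0.449.

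Complex II, which oxidises succinate and belongs to the citric acid cycle as well, was split in lung. Sdhd, a membrane anchor, had 112, 112, 96.6, 125 and 103 CPM in the TB lungs, against 44.1, 45.1 and 45.2 CPM in the CON lungs. Every TB library was more than double any CON library (log2 change 1.29, SE 0.13, adjusted p = 5.78e-05, edgeR). Sdha, the flavoprotein that binds succinate, had 128, 134, 135, 149 and 108 CPM in the TB lungs, against 151, 152 and 156 CPM in the CON lungs. The groups did not overlap and TB was the lower, but the difference did not pass (log2 change -0.23, SE 0.14, adjusted p = 0.184, edgeR). It passed in limma on log2(TPM + 1), at -0.57 (adjusted p = 0.0121), and over 19 alternatives the adjusted p ran from that value to 0.347. Sdhb, the iron-sulphur subunit, and Sdhc, the other membrane anchor, rose by 0.60 and 0.52 on the log2 scale in edgeR and were at 0.15 and -0.11 on log2(TPM + 1), where neither passed.

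The upstream sequences of Sdhd and Sdha are shown because these partners in 1 enzyme lay on opposite sides of CON in lung, and that of Cox8b because it was the single gene of the 45 that fell there. RefSeq (GRCm38.p6) gave a promoter for 34 of the 45 genes, and the 250 bases before the annotated gene start are printed 5′ to 3′ on the gene's strand, which is the minus strand for all 3. Sdhd is at chr9:50603850-50604099, Sdha at chr13:74350241-74350490 and Cox8b at chr7:140900447-140900696. Capitals mark matches, on either strand, to GCGCA and GCGC separated by any 1 base (N), the palindrome-like site of the nuclear respiratory factor NRF1, and to CCGGAAG, the core of ETS factors such as GABP, both known for nuclear genes of mitochondria.
Sdhd: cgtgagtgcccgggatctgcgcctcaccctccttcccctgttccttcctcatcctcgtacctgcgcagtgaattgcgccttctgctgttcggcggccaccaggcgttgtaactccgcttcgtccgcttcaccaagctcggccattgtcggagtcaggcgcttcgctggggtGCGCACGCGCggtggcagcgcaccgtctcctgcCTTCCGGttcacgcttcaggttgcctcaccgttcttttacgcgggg
Sdha: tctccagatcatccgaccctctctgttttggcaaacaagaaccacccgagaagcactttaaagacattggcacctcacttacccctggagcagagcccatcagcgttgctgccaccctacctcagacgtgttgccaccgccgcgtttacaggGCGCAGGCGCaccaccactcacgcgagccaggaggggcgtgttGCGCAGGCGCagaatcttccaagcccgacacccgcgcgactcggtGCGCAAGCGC
Cox8b: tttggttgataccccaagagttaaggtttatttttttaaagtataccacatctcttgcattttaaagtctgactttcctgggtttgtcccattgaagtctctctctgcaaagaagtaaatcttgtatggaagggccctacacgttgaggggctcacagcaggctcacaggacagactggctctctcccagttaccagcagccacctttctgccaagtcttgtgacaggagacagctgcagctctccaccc

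The Sdhd window held 1 NRF1 match, starting 79 bases before the gene start, and 1 ETS match at 46 bases before it. The Sdha window held 3 NRF1 matches, at 98, 55 and 10 bases before the start, and the Cox8b window held no match to either motif. Over the 34 windows, the NRF1 motif was in those of Ndufa5, Ndufa8, Sdha and Sdhd, or 11.8%, against 3.86% of 27025 mouse promoter windows of the same length. The ETS motif was in those of Ndufs3, Ndufb7, Sdhd and Cox6b1, also 11.8%, against 7.05% of all. The SP1 box GGGCGG was in 11 windows, 32.4% against 32.9% of all. AAGATGGC, a YY1 motif, and AAGGTCA, the half-site of oestrogen-related receptors, were in none of the 34, against 1.59% and 4.05% of all. These matches describe letters in a window and say nothing about binding.

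Complex III, which passes electrons to cytochrome c, rose in 5 of its 6 genes in lung. Uqcrq, a small subunit near the quinone site, averaged 129 ± 14.7 CPM in TB lung and 56.2 ± 1.19 CPM in CON lung, and Uqcrc1, a core protein, 138 ± 16.4 CPM in TB lung and 75.4 ± 2.58 CPM in CON lung (SD, n = 5 and 3). Both groups stood apart without overlap, with log2 changes of 1.19 and 0.87. Cyc1, the cytochrome c1 that hands electrons on, rose by 0.95 (SE 0.18, adjusted p = 0.00162, edgeR). Its partner Cycs, cytochrome c itself, had 108, 116, 85.8, 44.4 and 95.8 CPM in the TB lungs, against 60.0, 72.4 and 68.5 CPM in the CON lungs. TB 4 lay below every CON library and the other 4 above them, so the groups overlapped (log2 change 0.43, SE 0.28, adjusted p = 0.216, edgeR). Without TB 4 the change passed, at 0.62 (adjusted p = 0.00906), and over 19 alternatives the adjusted p ran from that value to 0.952. Cycs has processed copies elsewhere in the genome, and the authors' counting splits reads among copies, so its level is uncertain. Uqcrb, with a log2 change of 0.40 and an adjusted p of 0.0572, was the complex III gene that did not pass.

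Complex IV, cytochrome c oxidase, had the largest rise and the only fall. Cox5a, a subunit on the matrix side, had 128, 130.1, 88.2, 112 and 123 CPM in the TB lungs, against 29.4, 37.8 and 40.1 CPM in the CON lungs. All TB values were well above CON, a 3.25-fold difference (log2 change 1.70, SE 0.19, adjusted p = 7.56e-05, edgeR). Cox5b, also on the matrix side, rose by 1.39, Cox4i1, the common form of the regulatory subunit IV, by 1.37, and Cox7b by 1.22 on the log2 scale. Cox4i1 reached 347, 427, 345, 574 and 560.5 CPM in the TB lungs, against 164, 176 and 184 CPM in the CON lungs. Cox8b, the form of subunit VIII found in heart and skeletal muscle, was at 0.0327, 0.635, 0, 0 and 0 CPM in the TB lungs, against 2.68, 5.62 and 4.76 CPM in the CON lungs. In counts that was 34 over the 5 TB libraries, of which 32 were in TB 2, against 761 over the 3 CON libraries. The log2 change was -5.01, a fall (SE 1.32, edgeR, adjusted p = 0.00972). Without TB 2 it was -8.52, and leaving out any other library moved it no nearer to 0 than -4.67. Each 0 allows up to 3 counts in its library, or 0.0508 to 0.0626 CPM. These limits cover counting error only.

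Markers of other cell types moved with these values in lung. Of 10 heart muscle markers, 8 fell, and their summed level was 111, 499, 249, 120 and 389 TPM in the TB lungs, against 597, 1602 and 1560 TPM in the CON lungs. Myl7 and Myh6, myosin chains of heart muscle, had 20.9 and 21.9 TPM in TB 2, the TB library with the most Cox8b, and at most 0.13 TPM in the other 4 TB libraries. The sum in TB lung was mostly Tnnt2, cardiac troponin T, at 105 to 385 TPM. CON 1, with the least Cox8b of the controls, also had the least of the heart markers. All 8 cell cycle genes rose, with summed levels from 149 to 392 TPM in TB lung, against 19.9 to 24.9 TPM in CON lung. Of 8 keratin and epithelial genes 7 rose, from 8879 to 14451 TPM summed in TB lung, against 1300.3 to 1392 TPM in CON lung. Markers of alveolar type 2 cells (10 of 10), alveolar type 1 cells (8 of 8), club and ciliated cells (7 of 7) and endothelium (8 of 8) fell. Myh4, the fast skeletal myosin, was at 0 in every lung library, and the type 2 markers Sftpc, Sftpa1, Sftpd and Slc34a2 were at 0 in every gastrocnemius library. The summed type 2 level was 259 to 1952 TPM in TB lung, against 45503 to 52236 TPM in CON lung. The part of these cell types in the changes of the 45 genes was not tested.

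**Figure D2:**
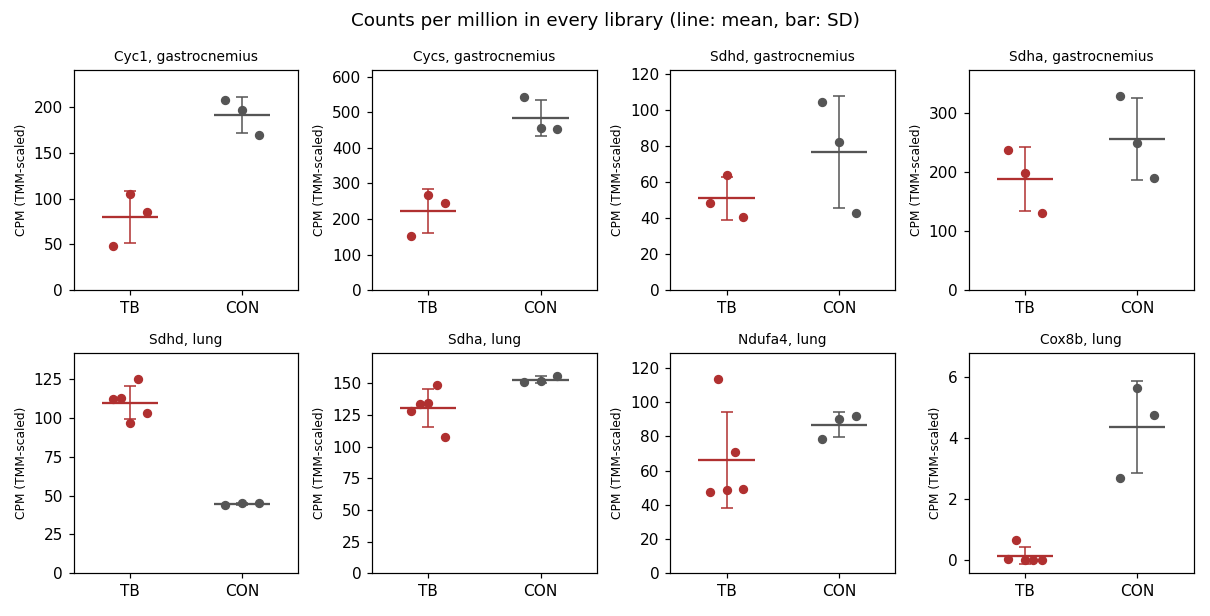
CPM in every library, as points, with the mean and SD, for Cyc1, Cycs, Sdhd and Sdha in gastrocnemius (top) and Sdhd, Sdha, Ndufa4 and Cox8b in lung (bottom). Cyc1 and Cycs are lower in all 3 TB gastrocnemius libraries, while in lung Sdhd lies above CON and Sdha below it in every TB library.

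In gastrocnemius the question was how the same genes differed in a muscle distant from the injected cells. The genes lay lower in TB muscle, with a log2 change below 0 for 44 of 45 genes, but 2 passed the test: Cyc1 and Cycs, neighbours in the chain between complexes III and IV, fell. Of all 14373 genes tested in gastrocnemius, 15.3% passed in either direction, 8.53% higher and 6.75% lower, against 0 and 4.44% of the 45 genes. At an unadjusted p under 0.05 in edgeR, 8 of the 45 were lower and 0 higher, where 2412 of all 14373 genes were lower and 2714 higher. DESeq2 called 0 higher and 4 lower, limma-voom 0 and 2, and limma on log2(TPM + 1) 0 and 0. Over all genes DESeq2 called 2093 higher and 1565 lower of 14364. Of 14373, limma-voom called 1001 higher and 1110 lower, and limma on log2(TPM + 1) 157 and 258. The median log2 change of the 45 was -0.55, against -0.03 over all genes tested. Upper-quartile scaling moved the median of all genes to -0.25 and left the 45 lower than it by a median of -0.49, against -0.52 with TMM. In 24 of the 45 genes the TB libraries lay wholly below CON, and in 0 wholly above, where the shares over all genes were 22.0% and 21.1%.

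Cyc1 had 48.4, 105 and 85.9 CPM in TB gastrocnemius, against 207, 197 and 169 CPM in CON gastrocnemius. Every TB library was below every CON library, with TB 1 the lowest, and the level was 0.418 of that in CON (log2 change -1.26, SE 0.33, adjusted p = 0.0363, edgeR). Cycs had 151, 268 and 245 CPM in TB gastrocnemius, against 544, 456 and 454 CPM in CON gastrocnemius. It was 0.457 of the CON level, again without overlap (log2 change -1.13, SE 0.30, adjusted p = 0.0402, edgeR). Ndufs1, the complex I core subunit, came next, with 49.4, 81.5 and 46.7 CPM in TB gastrocnemius, against 154, 121 and 90.4 CPM in CON gastrocnemius. Its groups did not overlap and the change did not pass (log2 change -1.04, SE 0.32, adjusted p = 0.0585, edgeR). Ndufs1 did pass in DESeq2 (adjusted p = 0.0229), with upper-quartile scaling (0.0472), without a filter (0.0303) and in 1 fit of all libraries (0.0172). It also passed in edgeR with the replicate number as a block (0.0333) and without TB 2 (0.0198). Over 17 alternatives the adjusted p of Ndufs1 ran from 0.0172 to 0.220. Neither Cyc1 nor Cycs passed without CON 1, 2 or 3 or without TB 3 (adjusted p from 0.0678 to 0.135), although their log2 changes stayed between -1.34 and -1.19 for Cyc1 and between -1.20 and -1.03 for Cycs. Calls over all genes fell away in the same fits, to 86 higher and 157 lower without CON 1, 51 and 90 without CON 2, 33 and 73 without CON 3 and 650 and 479 without TB 3, against 1226 and 970 with all libraries. Both genes passed without TB 1 or without TB 2. In limma on log2(TPM + 1) their adjusted p were 0.348 and 0.229, the highest over 17 alternatives, and DESeq2 gave 0.00393 and 0.00449, the lowest.

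The other complexes moved little apart from one another. Median log2 changes were -0.58 for complex I, -0.56 for complex II, -0.51 for complex III, -0.56 for complex IV and -0.47 for complex V. Within complex I the accessory genes of the A and S series had a median of -0.71, those of the B series -0.62 and the core genes -0.43. Ndufa6, an accessory subunit, was the gene with a positive value, 0.13 (SE 0.31, adjusted p = 0.790). Its values, 142, 228 and 287 CPM in TB gastrocnemius against 202, 193 and 207 CPM in CON gastrocnemius, overlapped. Ndufb7 and Ndufs8 lay wholly below CON, with log2 changes of -1.02 and -0.98 and adjusted p of 0.114 and 0.0875. Atp5b was at 1118, 1106 and 1302 CPM in TB gastrocnemius, against 1196, 1202 and 1339 CPM in CON gastrocnemius, and these values overlapped (log2 change -0.08, adjusted p = 0.844, edgeR). Its ring partner Atp5a1 was at 701, 839 and 766 CPM in TB gastrocnemius, against 1277, 1165 and 988 CPM in CON gastrocnemius. These groups did not overlap, but the change of -0.57 did not pass (adjusted p = 0.169). Cox8b, at 163, 432 and 475 CPM in TB gastrocnemius against 509, 527 and 593 CPM in CON gastrocnemius, did not pass (log2 change -0.61, adjusted p = 0.292), nor did Cox4i1 (-0.31, adjusted p = 0.546), Ndufa4 (-0.54, adjusted p = 0.280) or Sdha (-0.44, adjusted p = 0.352).

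TB gastrocnemius library 1 stood apart. Relative to the mean of CON, the median of the 45 genes was -1.24 in TB 1, -0.31 in TB 2 and -0.37 in TB 3 on the log2 scale, and TB 1 held the lowest of the 3 TB values for 39 of 45 genes. The numbers of genes below every CON library were 42, 31 and 31 in TB 1, 2 and 3. Without TB 1 the median was -0.31 and the 2 calls remained. The share of counts from mitochondrially encoded genes was 17.6%, 19.0% and 24% in TB gastrocnemius, against 16.2%, 26.7% and 34.1% in CON gastrocnemius. None of 10 slow and oxidative fibre markers passed in edgeR, but all 10 had log2 changes below 0, with a median of -0.97. Of the 10, 4 were lower and 0 higher at an unadjusted p under 0.05 in edgeR, as were 2412 and 2714 of all 14373 genes. Their summed level was 2015 to 3526 TPM in TB gastrocnemius, against 1503 to 8572 TPM in CON gastrocnemius. Of 8 fibroblast markers 5 fell, with summed levels of 184 to 330.4 TPM in TB gastrocnemius and 307 to 348 TPM in CON gastrocnemius. Of 6 neutrophil markers 4 passed the filter on low counts, which a gene low in CON can do through TB alone, and these 4 rose. The summed levels of all 6 were 9.08 to 13.9 TPM in TB gastrocnemius and 1.59 to 2.12 TPM in CON gastrocnemius. The part of fibre type or other cells in the values of the 45 genes was not tested.

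**Figure D3:**
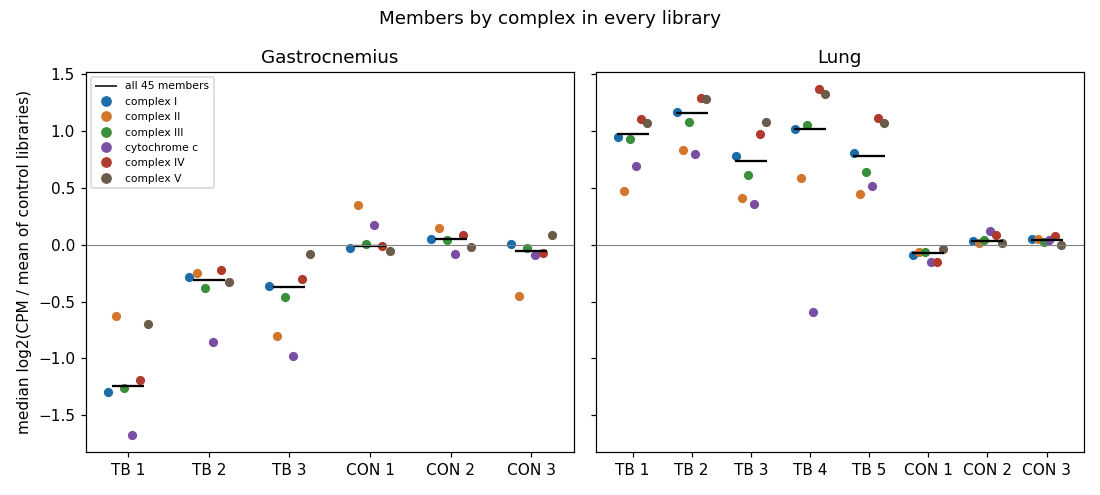
Median over the genes of each complex (coloured points) and over all 45 genes (black bars) of log2 CPM relative to the mean of the CON libraries, for every library of gastrocnemius (left) and lung (right), TB before CON. TB gastrocnemius 1 has the lowest bar at -1.24, and the 5 TB lung bars lie between 0.74 and 1.16.

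The spread among replicates differed between the groups. The median coefficient of variation of the 45 genes in CPM was 36.6% in TB gastrocnemius and 11.8% in CON gastrocnemius, and 15.1% in TB lung and 5.67% in CON lung. In TB lung it ran from 2.20% for Atp5c1 to 42.6% for Ndufa4, leaving out Cox8b at 210.2%. In TB gastrocnemius it ran from 9.0% for Atp5a1 to 55.6% for Ndufa2. Across the 45 genes, the log2 changes of gastrocnemius and lung had a Spearman correlation of 0.03, a description over genes that share their libraries.

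Whether the tumour effect differed between the tissues was tested as an interaction in 1 fit of all 14 libraries. The effect in gastrocnemius minus that in lung was lower for 37 of 45 genes, higher for Cox8b and not past the threshold for 7, with a median of -1.54 against 0.05 over all genes tested. Of the 19834 genes tested, 35.6% passed, 19.0% higher and 16.6% lower. Ndufa2 (-2.28, SE 0.50, adjusted p = 0.00272), Cox5a (-2.25, SE 0.45, adjusted p = 0.00156) and Cyc1 (-2.19, SE 0.37, adjusted p = 0.000485) had the largest negative values in edgeR. In all 3 genes TB lung was above CON lung and TB gastrocnemius had the lower mean. By complex, 17 of 22 genes of complex I were lower in this sense, 3 of 4 of complex II, 5 of 6 of complex III, 6 of 7 of complex IV and 5 of 5 of complex V. Cycs, which fell in gastrocnemius and did not pass in lung, had an interaction of -1.55 (SE 0.43, adjusted p = 0.0122). The genes that did not pass were Ndufs7, Ndufa3, Ndufb3, Ndufb10, Ndufa4, Sdha and Uqcrb. In limma on log2(TPM + 1), 22 genes passed as lower and 1 as higher, with 6624 of all genes higher and 2401 lower, against 3770 higher and 3287 lower in edgeR. The median over all genes was 0.33 there, and the median of the 45 lay at -1.41 relative to it, against -1.59 in edgeR. Cyc1 and Cycs did not pass on that scale (adjusted p = 0.0558 and 0.0801), and Cox8b did not pass in DESeq2 (4.34, adjusted p = 0.0749). The interaction of Cox8b was 4.40 in edgeR with all libraries and 7.77 without TB lung 2.

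The tissues were also compared in the CON mice alone. All 45 genes were higher in CON gastrocnemius than in CON lung on the CPM scale, with a median log2 difference of 4.11 against -0.25 over the 18053 genes tested, of which 81.3% passed, 36.5% higher and 44.9% lower. The size depends on the scale: on log2(TPM + 1) the median was 1.59, the median over all genes -1.66, and 38 genes passed as higher and 0 as lower. Over all genes, 1287 were higher and 15092 lower on that scale, against 6581 higher and 8097 lower in edgeR. The CPM groups did not overlap for any of the 45, all of them higher in gastrocnemius, where the shares over all genes were 37.0% higher and 46.9% lower. In TPM the CON libraries of both tissues overlapped for 7 genes, Ndufb3, Sdha, Sdhc, Sdhd, Uqcrc2, Uqcrfs1 and Cyc1. Complex II had the smallest median difference on the CPM scale, at 2.69, against 4.18 for complex I, 4.01 for complex III, 4.29 for complex IV and 3.85 for complex V. Direction turned with the scale for Sdha, Sdhc, Sdhd and Ndufb3, which were at -0.42, -0.25, -0.35 and -0.03 on log2(TPM + 1), where none passed. On the CPM scale Sdha was at 2.53 and Sdhc at 2.82. Cox8b had the largest difference, 8.74 (SE 0.34, adjusted p = 1.76e-07, edgeR), followed by Ndufa5 at 5.32 and Uqcrq at 5.30.

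**Figure D4:**
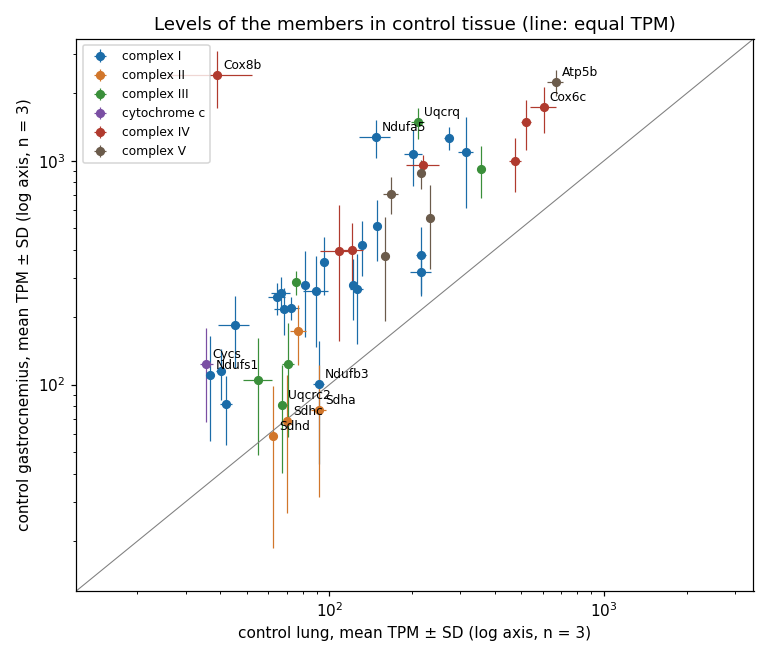
Mean TPM of each gene in CON gastrocnemius (vertical, log axis) against CON lung (horizontal, log axis), with SD bars (n = 3 each) and the line of equality, coloured by complex. Cox8b is the highest in gastrocnemius, at 2404 TPM, and among the lowest in lung, at 39.0 TPM, and Sdha, Sdhc and Sdhd of complex II lie near the line.

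Per transcript length, levels within a complex were unequal. In CON gastrocnemius Cox8b averaged 2404 ± 689.6 TPM and Atp5b 2240.3 ± 300.3 TPM, the highest of the 45 genes, and Sdhd 58.8 ± 40.1 TPM was the lowest (SD, n = 3). Complex I there ranged from 81.6 TPM for Ndufa9 to 1272 TPM for Ndufa5, complex II from 58.8 TPM for Sdhd to 174 TPM for Sdhb and complex III from 81.4 TPM for Uqcrc2 to 1489 TPM for Uqcrq. Complex IV ranged from 397 TPM for Cox5a to 2404 TPM for Cox8b and complex V from 375 TPM for Atp5c1 to 2240.3 TPM for Atp5b. In CON lung Atp5b led at 666 ± 45.9 TPM, followed by Cox6c at 602 ± 64.1 TPM, and Cycs was the lowest at 35.7 ± 1.96 TPM (SD, n = 3). There the lowest of complexes I, II, III and V were Ndufs1, Sdhd, Uqcrfs1 and Atp5c1, at 36.7, 62.5, 55.2 and 159 TPM. Their highest were Ndufa4 at 313 TPM, Sdha at 91.6 TPM, Uqcrb at 355 TPM and Atp5b. Across the 45 genes the mean TPM of both CON tissues had a Spearman correlation of 0.76, as a description.

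Several subunits exist in a ubiquitous and a tissue-restricted form, and the share of the restricted form in the summed TPM of its pair was compared over libraries. In lung the restricted form had a lower share in TB for all 6 pairs. The Cox8b share, out of Cox8b and Cox8a, was 0.0976% ± 0.205 in TB lung and 7.77% ± 2.42 in CON lung (SD, n = 5 and 3). Cox4i2, the lung form of subunit IV, made up 0.493% ± 0.279 of the pair with Cox4i1 in TB lung and 18.6% ± 1.05 in CON lung. The muscle forms Cox6a2 and Cox7a1 made up 0.487% and 5.68% of their pairs in TB lung, against 13.2% and 27.1% in CON lung. Cox6b2, the testis form, and Ndufa4l2, a hypoxia-inducible relative of Ndufa4, made up 0.252% and 6.14% in TB lung, against 8.68% and 15.2% in CON lung. The groups did not overlap in any pair, and each two-sided exact permutation test gave p = 0.0357, the smallest that 5 against 3 libraries allow, and 0.0357 after adjustment over the 6 pairs. Taken from counts, the differences between TB and CON were -3.68 percentage points for Cox8b and -11.4 for Cox7a1, against -7.68 and -21.5 from TPM, and those of the other 4 pairs moved by less than 1.5 times. With Cox8b and Cox6a2, the heart markers given above moved in the same libraries, and the part of heart tissue in these shares was not tested.

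The numerators and the partners both moved in lung. Cox4i2 had 2.07 CPM in TB lung and 39.6 CPM in CON lung, and fell by 4.25 on the log2 scale (adjusted p = 1.87e-05, edgeR), whereas Cox4i1 rose. Cox8a, the ubiquitous partner of Cox8b, averaged 284 CPM in TB lung and 112 CPM in CON lung and rose by 1.35. Cox6a2 fell by 4.01 and Cox7a1 by 1.59, while Cox6a1 rose by 0.73 and Cox7a2 by 1.11.

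In gastrocnemius, 3 against 3 libraries cannot give a p below 0.1. Cox8b made up 92.9% of its pair in TB gastrocnemius and 96.4% in CON gastrocnemius, and Cox7a1 73.5% in TB and 82.1% in CON, both without overlap (exact permutation p = 0.1, adjusted 0.15). Cox6a2 made up 98.9% in TB gastrocnemius and 97.2% in CON gastrocnemius, also without overlap (exact permutation p = 0.1). Cox6b2 made up 0.0565% in TB gastrocnemius and 0.0980% in CON gastrocnemius, again without overlap (exact permutation p = 0.1, adjusted 0.15). Taken from counts, the differences between TB and CON were -7.20 percentage points for Cox8b, -13.3 for Cox7a1 and -0.0747 for Cox6b2, against -3.52, -8.55 and -0.0416 from TPM. The shares of Cox4i2 (0.557% in TB and 0.452% in CON) and Ndufa4l2 (1.46% in TB and 0.847% in CON) overlapped, with exact permutation p of 0.3 and 0.6.

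**Figure D5:**
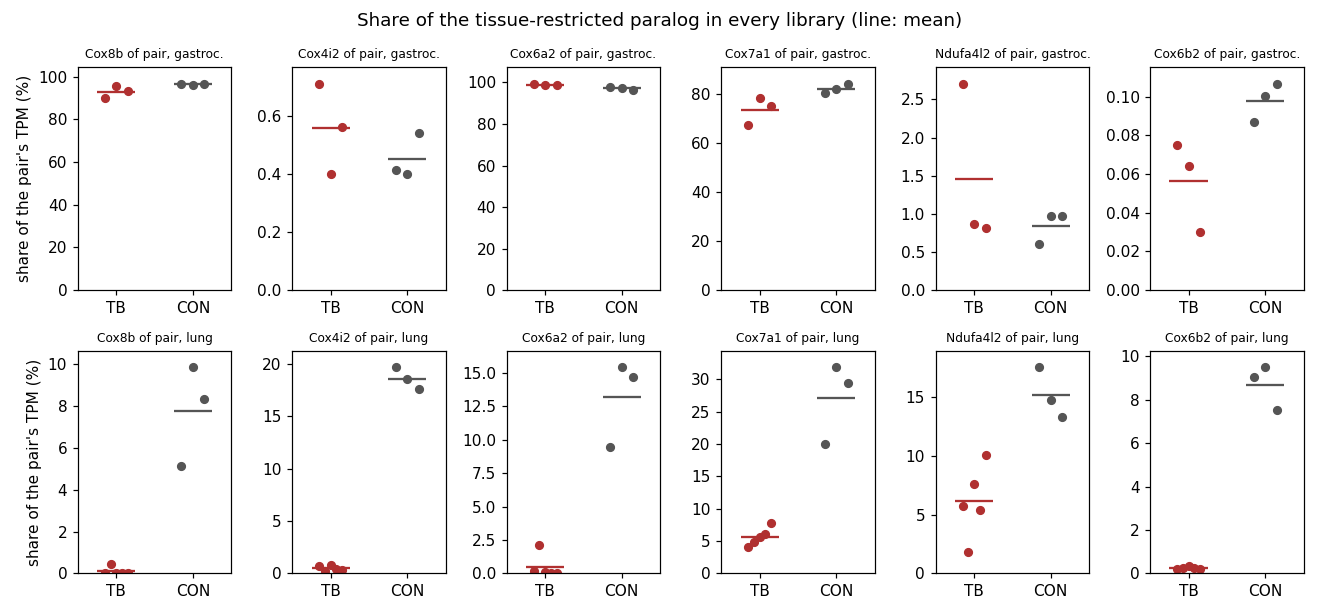
Share of the tissue-restricted form in the summed TPM of its pair (%), for 6 pairs in gastrocnemius (top) and lung (bottom), with 1 point per library and a line at the mean. The vertical scales differ between panels. In lung every TB point lies below every CON point, and Cox8b stays at 90.0% or more of its pair in every gastrocnemius library.

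Other genes of the pathway, listed apart from the 45, were counted in the same fits. The shares over all genes were 30.4% higher and 29.3% lower in lung and 8.53% higher and 6.75% lower in gastrocnemius. Of 38 other nuclear subunits, 28 rose, 5 fell and 5 did not pass in lung, with a median log2 change of 0.86. The 5 that fell were the restricted forms Cox4i2, Cox6a2, Cox7a1, Cox6b2 and Ndufa4l2, and Atpif1, the inhibitor of the ATP synthase, had the smallest p of those that rose (1.72, adjusted p = 1.22e-05, edgeR). In gastrocnemius 0 rose and 1 fell, Cox6b2, at 0.172 CPM in TB and 0.655 CPM in CON (-1.88, adjusted p = 0.0424, edgeR), with a median of -0.57 over the 38. At an unadjusted p under 0.05 in edgeR, 3 of the 38 were higher and 10 lower there, as were 2714 and 2412 of all 14373 genes. Ndufab1, the mitochondrial acyl carrier protein, did not pass there (-0.95, adjusted p = 0.0578).

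The 13 mitochondrially encoded subunits did not rise with the nuclear ones in lung. Of these, 1 rose, mt-Co3, and 4 fell, mt-Nd2, mt-Nd4l, mt-Nd5 and mt-Nd6, all parts of complex I. The shares over all genes in lung were 30.4% higher and 29.3% lower. In CPM, the TB libraries lay wholly above CON for 0 of the 13, so those of mt-Co3 overlapped, and wholly below for 5. Over all genes those shares were 30.9% and 32.1%. The median log2 change of the 13 was -0.52. The adjusted p were 0.00667 for mt-Nd5, at -1.61, and 0.0140 for mt-Nd2, at -1.58 (edgeR). Their summed level ran from 22479 to 91279 TPM in TB lung, against 88317 to 99013 TPM in CON lung, so these sums overlapped. In gastrocnemius 0 of 13 passed, where 15.3% of all genes did, with a median of -0.34 over the 13. By edgeR 0 of the 13 were higher and 2 lower at an unadjusted p under 0.05 there, among them mt-Co2 (-1.54, adjusted p = 0.0652). Over all 14373 genes, 2714 were higher and 2412 lower at that level. Nuclear copies of mitochondrial genes can share their reads, so these values are uncertain.

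For the lists that follow, the shares over all genes were 30.4% higher and 29.3% lower in lung and 8.53% higher and 6.75% lower in gastrocnemius. At an unadjusted p under 0.05 in edgeR, 6322 of 19300 genes were higher and 5991 lower in lung. In gastrocnemius 2714 of 14373 were higher and 2412 lower at that level. Of 46 assembly factors, which build the complexes, 22 rose and 0 fell in lung (1 lower at an unadjusted p under 0.05 in edgeR), led by Uqcc2 (1.62, a complex III factor) and Cox15 (0.91, which makes haem A for complex IV). In gastrocnemius 1 rose, Surf1, a complex IV factor (1.00, adjusted p = 0.0447), and 2 fell, the complex I factors Ndufaf1 (-1.37, adjusted p = 0.0286) and Timmdc1 (-1.12, adjusted p = 0.0499, edgeR). Of 20 carriers, membrane shaping and import proteins, 16 rose and 0 fell in lung (0 lower at an unadjusted p under 0.05 in edgeR), led by Phb2, a prohibitin (2.02), and Vdac1, the outer membrane channel (1.73). In gastrocnemius 2 of them rose, Tomm40, the import pore (1.17, adjusted p = 0.0290), and Phb2 (0.85, adjusted p = 0.0475, edgeR). The gastrocnemius calls of genes outside the 45 were not followed over the alternative fits. Calls over all genes there were 33 higher and 73 lower without CON 3 and 2447 higher and 2066 lower without TB 2, against 1226 and 970 with all libraries. Of 16 genes of the citric acid cycle and pyruvate dehydrogenase, 10 rose and 1 fell in lung, with Mdh2, malate dehydrogenase, at 1.24 and Idh3g, an isocitrate dehydrogenase subunit, at 0.99. None passed in gastrocnemius in edgeR, where 1 was higher and 2 lower at an unadjusted p under 0.05, Idh3a (-0.96, adjusted p = 0.0558) and Dlat (-0.97, adjusted p = 0.0820) being those with the smallest p.

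Among 21 regulators of mitochondrial gene expression, 3 rose and 3 fell in each tissue, where 20 of them could be tested in lung. The shares over all genes were 8.53% higher and 6.75% lower in gastrocnemius and 30.4% higher and 29.3% lower in lung. At an unadjusted p under 0.05 in edgeR, 6 were higher and 3 lower in gastrocnemius, and 3 higher and 3 lower in lung. Over all genes at that level, 2714 of 14373 were higher and 2412 lower in gastrocnemius, and 6322 of 19300 higher and 5991 lower in lung. In gastrocnemius Ppargc1b, a coactivator related to PGC-1alpha, had 1.74 CPM in TB and 5.71 CPM in CON and fell by 1.71 (adjusted p = 0.0188). Esrra, the oestrogen-related receptor alpha, fell by 1.29 (adjusted p = 0.0370), and Perm1, a muscle regulator that works with it, by 1.80 (adjusted p = 0.0474, edgeR). Nrip1, a corepressor of oxidative genes, rose by 1.46 (adjusted p = 0.0163), and Nrf1 and Ppard rose by 1.03 and 0.97. Ppargc1a, the best known of these coactivators, was at 14.1 CPM in TB and 13.2 CPM in CON gastrocnemius and did not pass (0.09, adjusted p = 0.881). In lung Esrra rose by 1.79 (adjusted p = 0.000459), Tfam, which packages the mitochondrial genome, by 0.73 and Ppard by 0.99. Esrrg, the gamma receptor, fell by 6.48 (adjusted p = 0.000186), Ppargc1a by 2.61 and Polg, the mitochondrial DNA polymerase, by 0.65 (edgeR).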

How the data were processed

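Per the submitters' processing notes, Trim Galore trimmed the reads, STAR 2.7.9a aligned them and RSEM 1.3.3 made the counts. The sources used here give no genome build or strand option. Libraries came from a directional kit read at 100 bases, per the labels. The authors deposited expected counts and TPM per gene for 14 libraries. RSEM divides reads between near-identical copies, so such genes are uncertain. Symbols were matched for 52083 of 55416 identifiers; Atp5o has 2, of which the other was at 0. Of 288 list genes 287 were found.

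Expected counts were rounded and each tissue fitted in edgeR 4.0.16 (R 4.3.3; TMM, filterByExpr, glmQLFTest), with Benjamini-Hochberg adjustment over all genes tested and a threshold of 0.05. SE was the absolute log2 change over the square root of F. CPM are TMM-scaled. The deposited TPM gave levels, paralog shares and an alternative in limma 3.58.1 on log2(TPM + 1) or (TPM + 0.1). Other alternatives were DESeq2 1.42.0, RLE and upper-quartile scaling, limma-voom, other filters, no mitochondrial rows, 1 joint fit, a replicate block and leave-one-out. The fits were tested on simulated data. Shares used exact permutation tests (scipy 1.17.1). Chi-square per degree of freedom between replicates was 21.3 to 480.5, so none was a duplicate.

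Members, lists and tests were chosen with earlier results of these data known. Every member was counted. Those named with values were all calls of a comparison (up to 12), otherwise those with the smallest p of each complex (3 of complex IV and of each complex I series, 2 elsewhere); Cyc1, Cycs, Cox8b, Cox4i1, Ndufa4, Sdha and Atp5b; the level extremes of each complex in CON; the 3 largest changes each way; and 2 genes per pathway list. Others were named after their values were seen, among them all calls of a list with 5 or fewer, Ndufa3, Ndufb3, Uqcrb, Sdhc, Atp5a1, Atp5o and the regulators.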

Additional observations from a re-analysis of the deposited data

Results flagged for a closer look

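In the 5 TB lung libraries, where a library far from the other 4 was looked for in 25 sets of values and chance alone marks about 1 in 20, a library stood apart for 2 genes. Atp5d was at 463 CPM in TB 5, and Cox8b at 0.635 CPM in TB 2.

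Of the 45 genes, 38 passed the interaction test, where 35.6% of all 19834 genes tested did. The difference between the TB effect in gastrocnemius and that in lung was flagged for 28 of these, among the genes examined singly. It was positive for Cox8b, at 4.40 on the log2 scale. It was negative for the others. In complex I it was -1.18 for Ndufs1, -1.39 for Ndufs3, -2.13 for Ndufs8, -1.76 for Ndufv1, -1.27 for Ndufv2, -2.28 for Ndufa2, -1.28 for Ndufa6, -2.11 for Ndufa8, -1.94 for Ndufs4, -1.54 for Ndufb5, -1.94 for Ndufb7, -1.80 for Ndufb8 and -1.89 for Ndufb9. In complexes II and III and cytochrome c it was -1.43 for Sdhb, -1.87 for Sdhd, -1.79 for Uqcrc1, -1.71 for Uqcrq, -2.19 for Cyc1 and -1.55 for Cycs. In complexes IV and V it was -1.67 for Cox4i1, -2.25 for Cox5a, -1.99 for Cox5b, -1.73 for Cox7b, -1.70 for Atp5a1, -0.98 for Atp5b, -1.60 for Atp5c1 and -2.19 for Atp5d.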

How the results depend on the processing

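Deviations of TB and CON libraries with the same replicate number correlated at 0.36, -0.04 and 0.42 in gastrocnemius and 0.09, 0.09 and -0.03 in lung. Across numbers in gastrocnemius, TB 1 with CON 3 gave -0.34 and TB 3 with CON 1 gave -0.47. The labels do not say that the numbers pair libraries, and whether they mark pairs or a batch was not tested. With the number as a block, 7 of the 45 genes passed in gastrocnemius, 37 in lung, 37 in the interaction and 45 between CON tissues. Over all genes, the block fit called 1627 higher and 1676 lower in gastrocnemius and 4939 and 5359 in lung. It called 3507 higher and 2967 lower in the interaction and 6295 and 7781 between CON tissues. In gastrocnemius 2 genes passed as reported, 4 in DESeq2, 3 with upper-quartile scaling, 5 without a filter, 9 in 1 fit of all libraries, 0 on either TPM scale and 0 to 5 without 1 library. None of these was higher in TB. Of all genes, 970 of 14373 were lower as reported, 1565 of 14364 in DESeq2 and 1079 of 14373 with upper-quartile scaling. Without a filter 1778 of 26170 were lower, and in 1 fit of all libraries 1578 of 19834. On the TPM scales 258 and 403 of 14373 were lower, and without 1 library 73 to 2066. The interaction gave 23 on either TPM scale, where 6624 and 6053 of all 19834 genes were higher and 2401 and 2468 lower. The lung median was 0.49 on either TPM scale. The median between CON tissues was 1.59 and 1.60 on the TPM scales, 4.02 with upper-quartile scaling, 3.93 without a filter, 3.83 in 1 fit of all libraries and 4.0 to 4.15 without 1 library. In gastrocnemius Ndufa6 was -0.0752 with upper-quartile scaling and between -0.11 (without TB 3) and 0.38 without 1 library. The interaction turned positive for Ndufa4 (0.21 and 0.22 on the TPM scales, -0.40 to 0.15 without 1 library, positive without TB gastrocnemius 1 or TB lung 2) and for Sdha (0.26 and 0.27 on the TPM scales, -0.40 to 0.0376 without 1 library, positive without CON gastrocnemius 1 or TB gastrocnemius 3). Between CON tissues Sdha was -0.42 on both TPM scales and Sdhc -0.25 and -0.26. In gastrocnemius the share difference of Cox4i2 was -0.0189 and that of Ndufa4l2 -0.0610 percentage points when taken from counts, and that of Ndufa4l2 ran from -0.00654 (without TB 1) to 0.938 without 1 library. Without 1 library the lung share differences, TB minus CON, ranged from -9.0 to -6.64 for Cox8b, -18.6 to -17.6 for Cox4i2, -14.6 to -11.6 for Cox6a2, -25.0 to -19.1 for Cox7a1, -10.1 to -7.89 for Ndufa4l2 and -9.02 to -8.02 for Cox6b2, with adjusted p of 0.0571 or 0.0952, the smallest those sizes allow. The causes were not tested.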
